A study of Mus musculus with 10 samples.

Results

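The Myc, Max and Mxd network was followed through RNA-seq of CD34- hematopoietic stem cells (HSCs), as 10 genes chosen by symbol: Myc, Mycn and Mycl (the Myc family), Max (their shared partner), Mxd1, Mxd3, Mxd4, Mxi1 and Mnt (the antagonists) and Mlx. All 10 were listed among the 33393 genes of the deposited files. Cells were sorted as lineage- Sca-1+ c-Kit+ CD34- Flt3- from the bone marrow of C57BL/6 mice aged 8 weeks. Controls carried Reg1flox/flox alleles and no Cre by their labels, and the libraries labelled Reg1Δ/Δ came from Vav1-iCre; Reg1flox/flox mice, so that floxed alleles of the Regnase-1 gene were common to both groups. Vav1-iCre acts throughout the blood lineages and not only in stem cells. There were 5 libraries of each genotype in 2 experiments, told apart by their titles: experiment 1 had 3 control and 3 Reg1Δ/Δ libraries, and experiment 2, titled LT-HSC, had 2 of each.

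Proteins of this network are basic helix-loop-helix leucine zipper factors that bind DNA as dimers. Myc, Mycn or Mycl pairs with Max on E-box sequences and recruits coactivators, and its targets include genes of ribosome synthesis, metabolism and cell growth. The Mxd proteins, Mxi1 and Mnt compete for Max and bring corepressors to the same sequences, while Mlx pairs with the MondoA and ChREBP proteins and with some antagonists. In blood-forming tissue Myc and Mycn are known for overlapping roles in stem cell survival and in the exit from the niche, and Mxd1 for its part in terminal myeloid differentiation.

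Levels are given in TPM (a share of all transcripts, scaled to a fixed total). It corrects for transcript length. Depth is unknown, since the files hold no counts. Fewer genes reached 1 TPM in the libraries labelled Reg1Δ/Δ, 12006 to 12048 against 14276 to 14307 in controls of experiment 1. In experiment 2 there were 11398 and 11256 against 13366 and 13717. The part of this difference in the values of the network was not tested. Zc3h12a, which encodes Regnase-1, was measured at 1.83, 1.28 and 1.60 TPM in the controls of experiment 1 and at 3.54, 2.08 and 2.51 TPM in the libraries labelled Reg1Δ/Δ. In experiment 2 it was at 1.48 and 6.07 TPM in controls and at 10.3 and 8.52 TPM in the libraries labelled Reg1Δ/Δ. It was thus higher, not lower, where the label gives the deletion, by 0.83 on the log2 scale (SE 0.28, limma adjusted p = 0.0314, n = 5 against 5, exact two-sided permutation within experiments p = 0.0167, the smallest this design can give). Transcript values show no exons, so the deleted part of the gene was not checked. The limma call was lost without any of 4 libraries in turn, where the log2 difference was 0.72 to 0.83 and the adjusted p reached 0.0768.

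Markers of cell types moved with genotype as well. Of 8 stem cell markers, 7 passed the limma test as lower in the libraries labelled Reg1Δ/Δ, where Procr was at 0.11 to 1.36 TPM against 19.8 to 37.3 TPM in controls, and Hlf at 0.79 to 2.72 TPM against 33.9 to 176 TPM. Ly6a, which encodes Sca-1, was at 50.9 to 449 TPM in the libraries labelled Reg1Δ/Δ of experiment 1, against 85.2 to 108 TPM in its controls, and at 115 to 124 TPM against 68.1 to 73.8 TPM in experiment 2, where the groups did not overlap, and it did not pass (log2 difference 0.92, limma adjusted p = 0.155). Kit, which encodes c-Kit, was at 95.6 to 116 TPM in the libraries labelled Reg1Δ/Δ of experiment 1, against 284 to 367 TPM in its controls. In experiment 2 Kit was at 56.1 to 70.0 TPM against 106 to 165 TPM. Cd34, whose product the gate removes, was at 51.9 to 236 TPM in controls and at 9.54 to 19.8 TPM in the libraries labelled Reg1Δ/Δ. The summed TPM of 9 B-lineage markers was 183 to 1195 in controls of experiment 1 and 1368 to 1570 in those of experiment 2, against 5.58 to 23.9 and 2.75 to 8.63, with Pax5 below 1 TPM in every library labelled Reg1Δ/Δ. The summed TPM of 6 T-lineage markers was 31.8 to 58.6 and 36.4 to 39.5 in controls against 2.61 to 4.67 and 3.87 to 4.82, and Cd8a was below 1 TPM in every library. Neutrophil and granulocyte markers, 9 genes, summed to 3079 to 5485 and 11769 to 13671 TPM in controls against 312 to 969 and 838 to 886 TPM. By limma 7 of the 9 were lower and 2 did not pass. In experiment 2 Mpo overlapped, at 318 to 321 TPM in controls against 283 to 364 TPM. Elane also overlapped there, at 134 to 182 TPM against 158 to 193 TPM. Among 8 erythroid markers, 3 were higher (Klf1, Car1 and Epor) and 4, the globins, were lower, with summed levels of 3356 to 6059 and 6605 to 8324 TPM in controls against 8286 to 9088 and 7060 to 7204 TPM. The 5 megakaryocyte markers summed to 237 to 455 and 93.6 to 103 TPM in controls against 80.3 to 98.8 and 19.1 to 27.5 TPM, with Ppbp below 1 TPM in every library labelled Reg1Δ/Δ. The part of these markers in the values of the network was not tested. In such bulk samples fewer cells of a type and less RNA per cell cannot be told apart.

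The network changed its composition between genotypes. Myc rose in the libraries labelled Reg1Δ/Δ, while Mycn and the antagonist Mxd4 fell steeply, and all 3 kept their call and direction on each of 3 scales. Over all genes, 1933 of 12874 were higher (15.0%) and 4880 lower (37.9%) at a limma adjusted p under 0.05, 52.9% in all. Of 9 members tested, 1 was higher, 6 were lower and 2 did not pass. The median log2 difference of the 9 was -0.55, beside -0.25 over all genes tested. Max and Mlx were the members that did not pass, and Mycl lay below 1 TPM in all 10 libraries and was not tested.

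**Figure D1:**
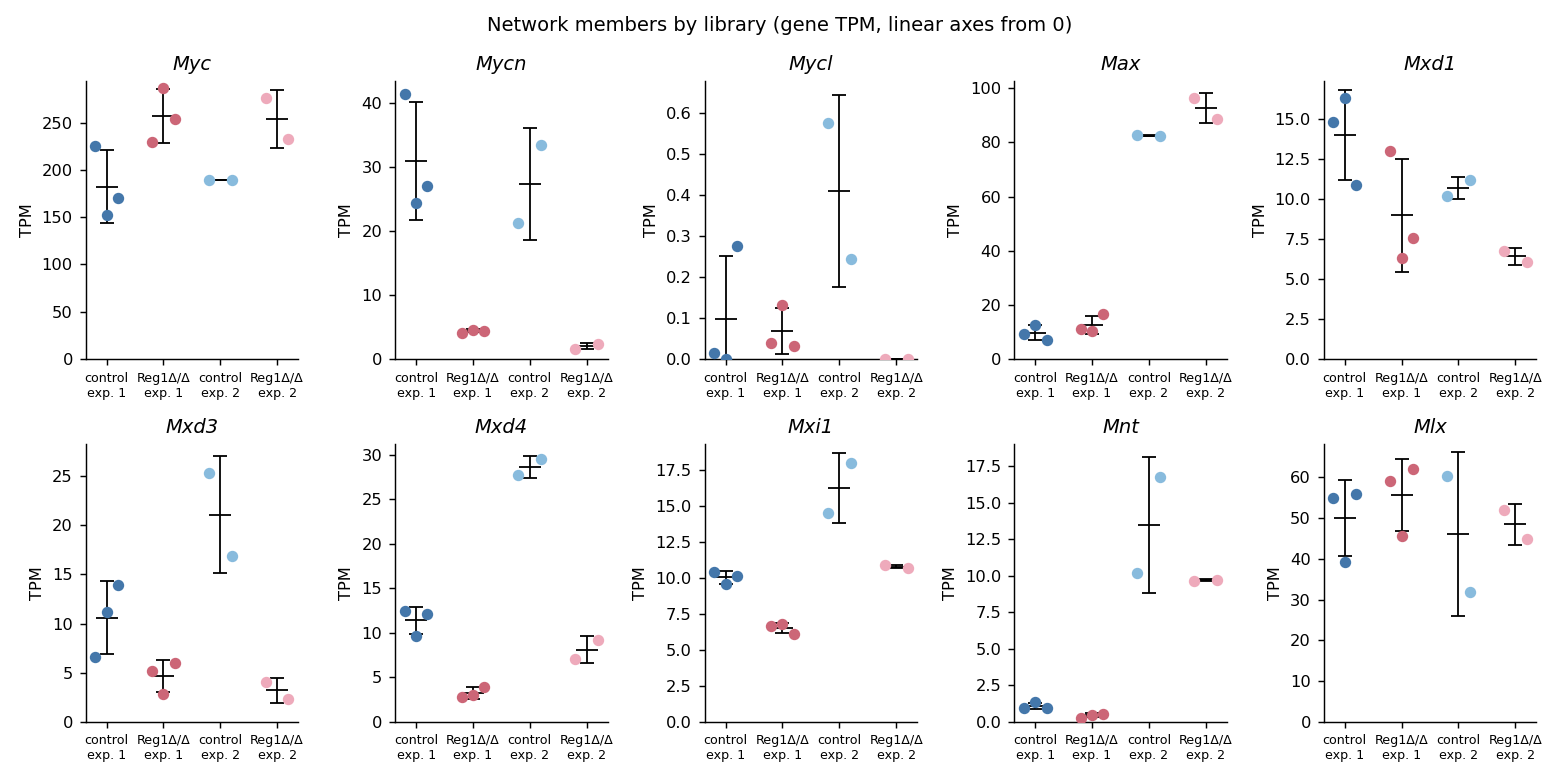
TPM of each of the 10 members in each library (points) with the mean and SD of the group (black), on linear axes from 0, for controls and the libraries labelled Reg1Δ/Δ of both experiments. Mycn fell from 21.2 to 41.5 TPM in controls to 1.64 to 4.60 TPM, and Max and Mnt differed more between the experiments than between the genotypes.

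How far a difference held depended on the scale. A TPM table fixes the total of each library. Median-of-ratios scaling moved the median of all genes up by 0.30 and quantile normalization by 0.40 on the log2 scale. Genes then split into 3973 higher (30.9%) and 3426 lower (26.6%) by median of ratios, and into 3861 higher (30.0%) and 2636 lower (20.5%) by quantiles. On the median-of-ratios scale 3 members were higher (Myc, Max and Mlx) and 4 lower (Mycn, Mxd3, Mxd4 and Mxi1). On the quantile scale 2 were higher (Myc and Max) and 2 lower (Mycn and Mxd4). The calls of Mxd1 and Mnt thus held on the TPM scale only, and the member differences below are given with their values on the other scales where these change a call.

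**Figure D2:**
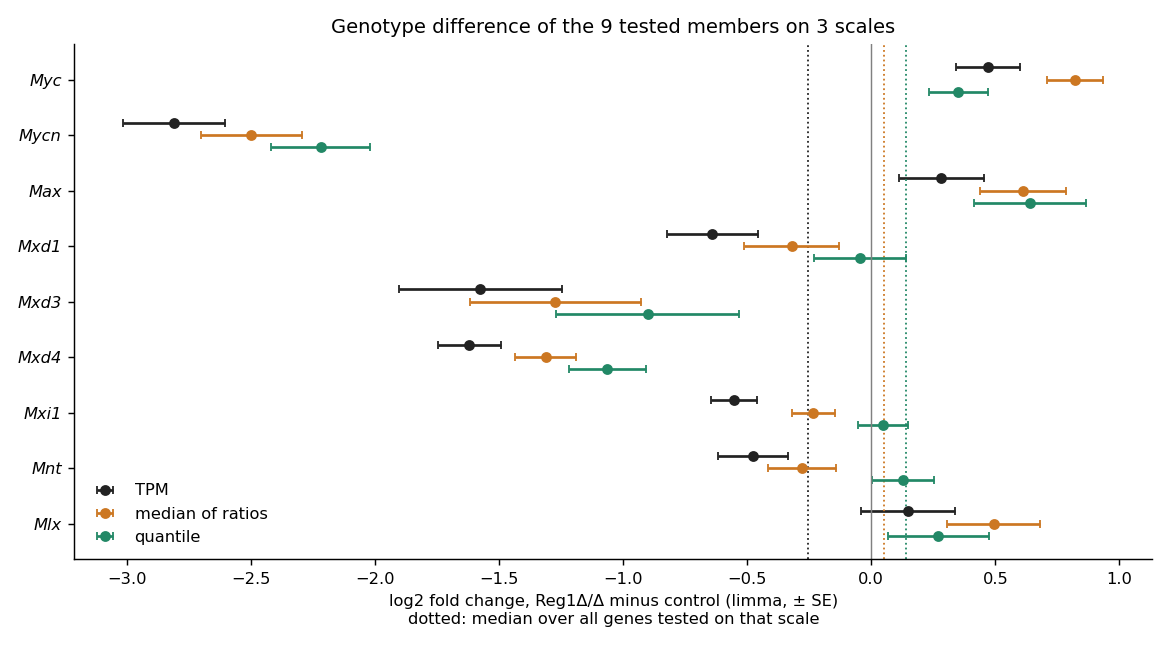
Log2 fold change of the 9 tested members, libraries labelled Reg1Δ/Δ minus controls, with SE bars from limma, on the TPM scale (black), after median-of-ratios scaling (orange) and after quantile normalization (green), with dotted lines at the median of all genes on each scale. Mycn ran from -2.81 to -2.22 and Mxd4 from -1.62 to -1.06, while Mxi1 and Mnt crossed 0 to 0.05 and 0.13 on the quantile scale.

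Myc, the family member used in most dividing blood cells, was the most abundant member in all 4 groups (chr15:61985391-61990374, plus strand, GRCm38). Controls of experiment 1 had 225, 152 and 170.0 TPM, and the libraries labelled Reg1Δ/Δ had 229.8, 287 and 254 TPM. In experiment 2 the controls had 189.0 and 189.5 TPM against 276 and 233 TPM. Every library labelled Reg1Δ/Δ lay above every control of its experiment, by a narrow gap in experiment 1, where the first control stood close to the lowest of them. The rise was 0.47 on the log2 scale (SE 0.13, limma adjusted p = 0.0124), or 1.41 times the control mean in experiment 1 and 1.34 times in experiment 2. It was 0.82 by median of ratios and 0.35 by quantiles (limma adjusted p = 0.000222 and 0.0339). Within either experiment alone it did not pass, at 0.51 with an adjusted p of 0.0585 in experiment 1 and 0.42 with 0.121 in experiment 2 by limma.

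Mycn, whose product can stand in for Myc in stem cells, moved the other way and had the largest change of any member on the TPM scale (chr12:12936093-12941914, minus strand). It was measured at 41.5, 24.4 and 27.1 TPM in the controls of experiment 1 and at 4.14, 4.60 and 4.43 TPM in the libraries labelled Reg1Δ/Δ. In experiment 2 it was at 21.2 and 33.5 TPM against 1.64 and 2.32 TPM. The genotypes were far apart in both experiments, with the lowest control several times above the highest library labelled Reg1Δ/Δ. Mean TPM was 7.05 times higher in controls in experiment 1 and 13.8 times higher in experiment 2, and the log2 difference was -2.81 (SE 0.21, limma adjusted p = 4.22e-06).

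Mycl, the third family member, lay below the minimum for testing, with 0.28 TPM at most in experiment 1 and 0.57 TPM in a control of experiment 2. As a share of the TPM of Myc, Mycn and Mycl together, Mycn made up 15.5%, 13.8% and 13.7% in the controls of experiment 1 and 10.1% and 15.0% in those of experiment 2. It made up 1.77%, 1.58% and 1.71%, then 0.592% and 0.989%, in the libraries labelled Reg1Δ/Δ. This share does not depend on a scaling of whole libraries, and its ranges did not overlap.

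Max, the shared partner of the Myc family and the Mxd proteins (chr12:76937269-76962201, minus strand), was at 9.23, 12.7 and 7.13 TPM in the controls of experiment 1 and at 11.1, 10.4 and 16.6 TPM in the libraries labelled Reg1Δ/Δ. Experiment 2 gave 82.6 and 82.3 TPM in controls and 96.5 and 88.6 TPM in the libraries labelled Reg1Δ/Δ. The genotypes overlapped in experiment 1 and did not in experiment 2. The log2 difference of 0.28 (95% interval -0.10 to 0.66, limma adjusted p = 0.192) did not pass on the TPM scale. It passed at 0.61 by median of ratios (limma adjusted p = 0.0130) and 0.64 by quantiles (0.0395), and was -0.01 when only protein-coding transcripts were counted.

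Mlx, the partner of MondoA (chr11:101087277-101092207, plus strand), ranged over 39.2 to 55.8 TPM in the controls and 45.6 to 62.1 TPM in the libraries labelled Reg1Δ/Δ of experiment 1. In experiment 2 the controls had 60.4 and 31.9 TPM, which enclosed the 52.1 and 44.8 TPM of the libraries labelled Reg1Δ/Δ. The log2 difference was 0.15 (95% interval -0.27 to 0.57, limma adjusted p = 0.532), which leaves room for a change of either sign, and 0.49 by median of ratios (limma adjusted p = 0.0455).

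Among the antagonists, Mxd4 (chr5:34173883-34187720, minus strand) had the lowest adjusted p. Its controls were at 12.5, 9.64 and 12.1 TPM in experiment 1 and at 27.7 and 29.5 TPM in experiment 2. The libraries labelled Reg1Δ/Δ were at 2.73, 2.96 and 3.94 TPM and at 7.06 and 9.17 TPM. The groups did not overlap in either experiment, and the ratio of means was 3.54 in experiment 1 and 3.53 in experiment 2, controls over libraries labelled Reg1Δ/Δ. The log2 difference was -1.62 (SE 0.13, limma adjusted p = 6.23e-06).

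Mxd3, an antagonist usually found in cycling progenitors (chr13:55325168-55329823, minus strand), was at 6.58, 11.2 and 13.9 TPM in controls and 5.17, 2.83 and 5.99 TPM in the libraries labelled Reg1Δ/Δ of experiment 1. Experiment 2 had 25.3 and 16.9 TPM against 4.09 and 2.28 TPM. The 2 genotypes were apart in both experiments, narrowly in the first. The log2 difference was -1.58 (SE 0.33, limma adjusted p = 0.00285), and on the quantile scale -0.90 with an adjusted p of 0.0660 by limma. Means differed 2.27 times in experiment 1 and 6.62 times in experiment 2, the widest gap between experiments among the tested members in log2 terms (-1.39), but this difference did not pass for Mxd3 (limma interaction adjusted p = 0.333).

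Mxi1, also known as Mxd2 (chr19:53310518-53375810, plus strand), had 10.4, 9.54 and 10.2 TPM in controls and 6.64, 6.76 and 6.09 TPM in the libraries labelled Reg1Δ/Δ of experiment 1. It had 14.5 and 18.0 TPM against 10.9 and 10.7 TPM in experiment 2. Replicates were close and the groups did not overlap. The log2 difference was -0.55 (SE 0.09, limma adjusted p = 0.000793), but it was -0.23 by median of ratios and 0.05 by quantiles, where it no longer passed (limma adjusted p = 0.709). It passed in experiment 1 alone (-0.56, limma adjusted p = 0.00839). In experiment 2 alone it did not (-0.54, limma adjusted p = 0.102), nor without the experiment covariate (limma adjusted p = 0.109).

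Mxd1, the antagonist of terminal myeloid cells (chr6:86647042-86669161, minus strand), had 14.8, 16.3 and 10.9 TPM in controls and 13.0, 6.32 and 7.57 TPM in the libraries labelled Reg1Δ/Δ of experiment 1, where the groups overlapped. In experiment 2 it had 10.2 and 11.1 TPM against 6.77 and 6.02 TPM, without overlap. The log2 difference of -0.64 (SE 0.18, limma adjusted p = 0.0149) was -0.32 by median of ratios and -0.05 by quantiles, and passed on neither (limma adjusted p = 0.182 and 0.853). The call was also lost with protein-coding transcripts only (-0.44, limma adjusted p = 0.0667) and within either experiment alone (limma adjusted p = 0.0985 in experiment 1, and just over the threshold in experiment 2). Without the experiment covariate it was lost as well (limma adjusted p = 0.0576).

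Mnt, the most widely expressed antagonist in most tissues (chr11:74830920-74845725, plus strand), lay near or below the 1 TPM minimum in experiment 1, at 0.97, 1.32 and 0.91 TPM in controls and 0.28, 0.45 and 0.56 TPM in the libraries labelled Reg1Δ/Δ. In experiment 2 it was at 10.2 and 16.8 TPM against 9.67 and 9.74 TPM. It met the minimum of 1 TPM in exactly 5 libraries, the fewest that the filter allows. The log2 difference of -0.48 (SE 0.14, limma adjusted p = 0.0165) was lost by median of ratios (-0.28, adjusted p = 0.106) and turned to 0.13 by quantiles (adjusted p = 0.410). Low values weigh on this scale: with a pseudocount of 0.1 the log2 difference was -0.86, and the ratio of mean TPM, controls over libraries labelled Reg1Δ/Δ, was 2.47 in experiment 1 and 1.39 in experiment 2. Mnt passed in experiment 1 alone (-0.53, limma adjusted p = 0.0216). It did not pass in experiment 2 alone (-0.40, limma adjusted p = 0.420) or without the experiment covariate (limma adjusted p = 0.786).

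Ranges of the 2 genotypes were apart in both experiments for 1 member that was higher (Myc) and 5 that were lower (Mycn, Mxd3, Mxd4, Mxi1 and Mnt), beside 12.7% and 31.4% of all genes tested in those directions. Of the 9 members, 0 passed the limma interaction test of genotype and experiment, beside 57 of all genes (0.443%). With so small a share over all genes, this count cannot show that the genotype difference was alike in both experiments. Experiment 2 had only 2 libraries of each genotype. At an unadjusted p under 0.05 in the interaction test there was 1 member, Mxd3, on the TPM scale, beside 1603 of 12874 genes. There were 2 members on the median-of-ratios scale, beside 1629 genes, and 3 on the quantile scale, beside 1887 genes.

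The order of the members was led by Myc in every group, and of the 8 pairs of neighbours below it, 5 overlapped in the controls of each experiment, against 3 and 1 in the libraries labelled Reg1Δ/Δ of experiments 1 and 2. In controls of experiment 1, Myc (mean 182 TPM) stood clear of Mlx (49.9 TPM), which overlapped with Mycn (31.0 TPM), while Mxd1, Mxd4, Mxd3, Mxi1 and Max, with means of 14.0 down to 9.70 TPM, each overlapped with the next. In the libraries labelled Reg1Δ/Δ of that experiment Mycn fell from the third to the seventh place, at a mean of 4.39 TPM that overlapped with Mxd3. In controls of experiment 2, Max (82.5 TPM) came next to Myc (189 TPM), and Mxd4, Mycn, Mxd3, Mxi1, Mnt and Mxd1 each overlapped with the next between 28.6 and 10.7 TPM. In the libraries labelled Reg1Δ/Δ of experiment 2, Mycn was the ninth of 10 members at a mean of 1.98 TPM.

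Set against each other within a library, the Myc family outweighed the antagonists in all 10. The summed TPM of Myc, Mycn and Mycl was 5.90, 3.68 and 4.12 times that of Mxd1, Mxd3, Mxd4, Mxi1 and Mnt in controls of experiment 1, and 2.40 and 2.42 times in those of experiment 2. In the libraries labelled Reg1Δ/Δ it was 8.41, 15.1 and 10.7 times, and 7.21 and 6.20 times. Every library labelled Reg1Δ/Δ had the higher ratio in its experiment. The log2 ratio of antagonists to family was lower by 1.31 in experiment 1 and by 1.47 in experiment 2, beside a pooled SD within groups of 0.33. On the TPM scale the mean sum of the antagonists was 47.0 TPM against 23.8 TPM in experiment 1 and 90.1 TPM against 38.2 TPM in experiment 2, whereas the family sum was 213 against 261 TPM and 217 against 256 TPM. Scaling of whole libraries leaves the ratio as it is, but it moves both sums and so how the shift divides between them. These ratios are of RNA, and as the members were chosen with results known they are given without a test.

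**Figure D3:**
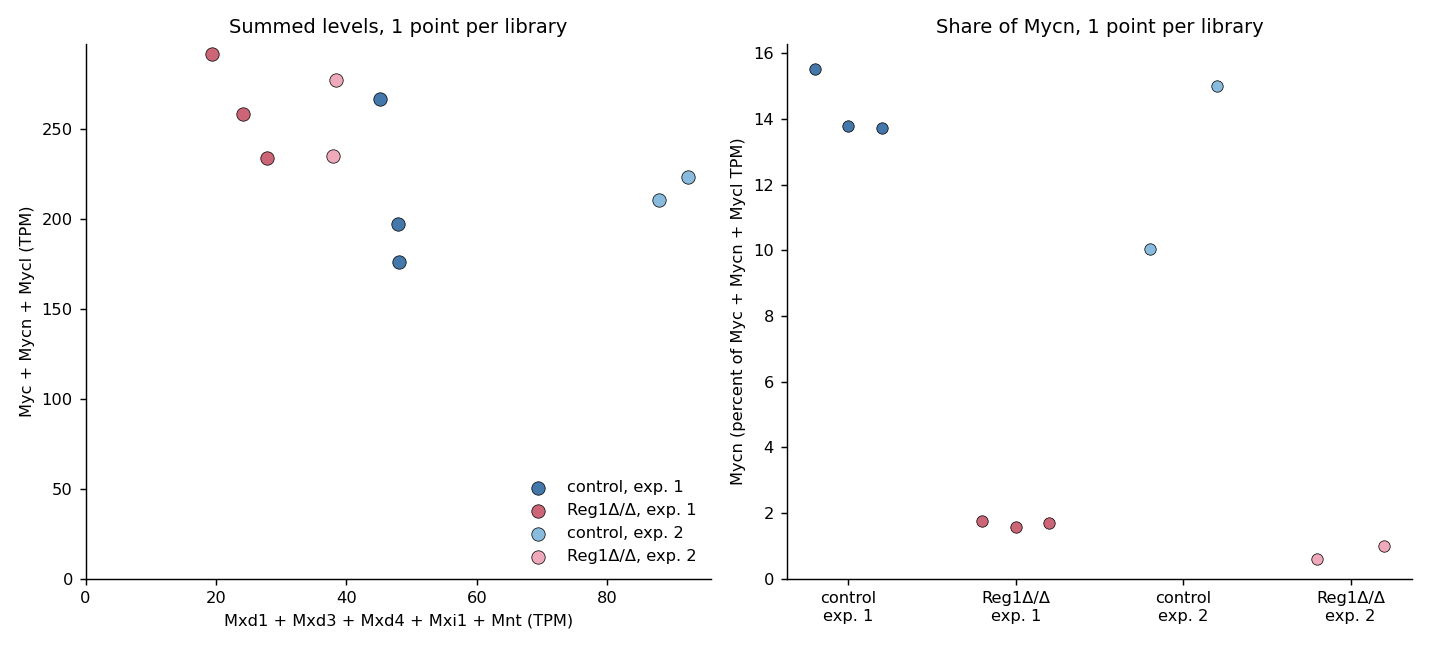
Left, summed TPM of Myc, Mycn and Mycl against summed TPM of the 5 antagonists, and right, Mycn as a percentage of the Myc family, with 1 point per library, on linear axes from 0. The libraries labelled Reg1Δ/Δ lie at 19.3 to 38.5 TPM of antagonists against 45.2 to 92.3 TPM in controls, and Mycn is at most 1.77% of the family in them.

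Several members also differed between the experiments. Mean TPM of Max was 8.50 times higher in controls of experiment 2 than in those of experiment 1 and that of Mnt 12.7 times higher, log2 differences of 2.90 and 2.84 over both genotypes (limma adjusted p = 4.66e-07 and 1.30e-07). Mxd4 and Mxi1 were also higher in experiment 2, by 1.19 and 0.65, whereas Myc differed by 0.03 (limma adjusted p = 3.08e-05, 0.000245 and 0.862). Over all genes, 60.4% differed by experiment. Protein-coding transcripts held 46.2% to 49.1% of all TPM in experiment 1 and 73.5% to 81.1% in experiment 2. Cells, library preparation and processing of the 2 experiments cannot be told apart.

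Transcript estimates showed a split by experiment within Max, whereas coding transcripts held 100% of Mnt TPM in the controls of both experiments. Of 45 transcripts of the members, 26 met the filter. Coding transcripts made up 38.6% of Max TPM in controls of experiment 1 and 90.5% in those of experiment 2, where the 1926 nt transcript ENSMUST00000082136 was at 56.4 and 45.0 TPM against 2.31, 4.0 and 1.58 TPM. In experiment 1 a fragment of 203 nt annotated for nonsense-mediated decay, ENSMUST00000218653, held 38.0% of Max TPM in controls and 47.5% in the libraries labelled Reg1Δ/Δ. Non-coding transcripts also made up most of Mlx in experiment 1, where coding ones held 31.4% in controls and 33.4% in the libraries labelled Reg1Δ/Δ.

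Mycn was assigned mainly to ENSMUST00000130990 (2522 nt) in experiment 1, with 71.1% of its TPM in controls and 76.6% in the libraries labelled Reg1Δ/Δ, and mainly to ENSMUST00000043396 (2674 nt) in experiment 2, with 91.7% of it in controls and all of it in the libraries labelled Reg1Δ/Δ. Both fell with genotype, with log2 differences of -1.85 and -2.57 (limma adjusted p = 0.0114 and 0.000146 over 31937 transcripts). Myc TPM in experiment 1 was spread over ENSMUST00000188482, ENSMUST00000167731 and ENSMUST00000161976 at 31.5%, 29.3% and 27.3% in controls. In experiment 2 ENSMUST00000161976 alone held 60.2% in controls and 68.7% in the libraries labelled Reg1Δ/Δ. Transcripts of a gene share most of their sequence, so their split is an estimate and less certain than the gene sum.

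Of the 26 transcripts tested, 1 was higher and 5 were lower, beside 6.40% and 14.9% of all transcripts. The higher was ENSMUST00000161976 of Myc (log2 difference 0.56, limma adjusted p = 0.0347), a call lost without any of 7 libraries in turn. The lower were both of Mycn, both main transcripts of Mxd4, ENSMUST00000042701 and ENSMUST00000119171 (-1.40 and -1.37), and ENSMUST00000021941 of Mxd3 (-1.50, limma adjusted p = 0.0286), whose call was also lost without any of 7 libraries in turn. These transcripts were chosen for mention after their values were seen.

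**Figure D4:**
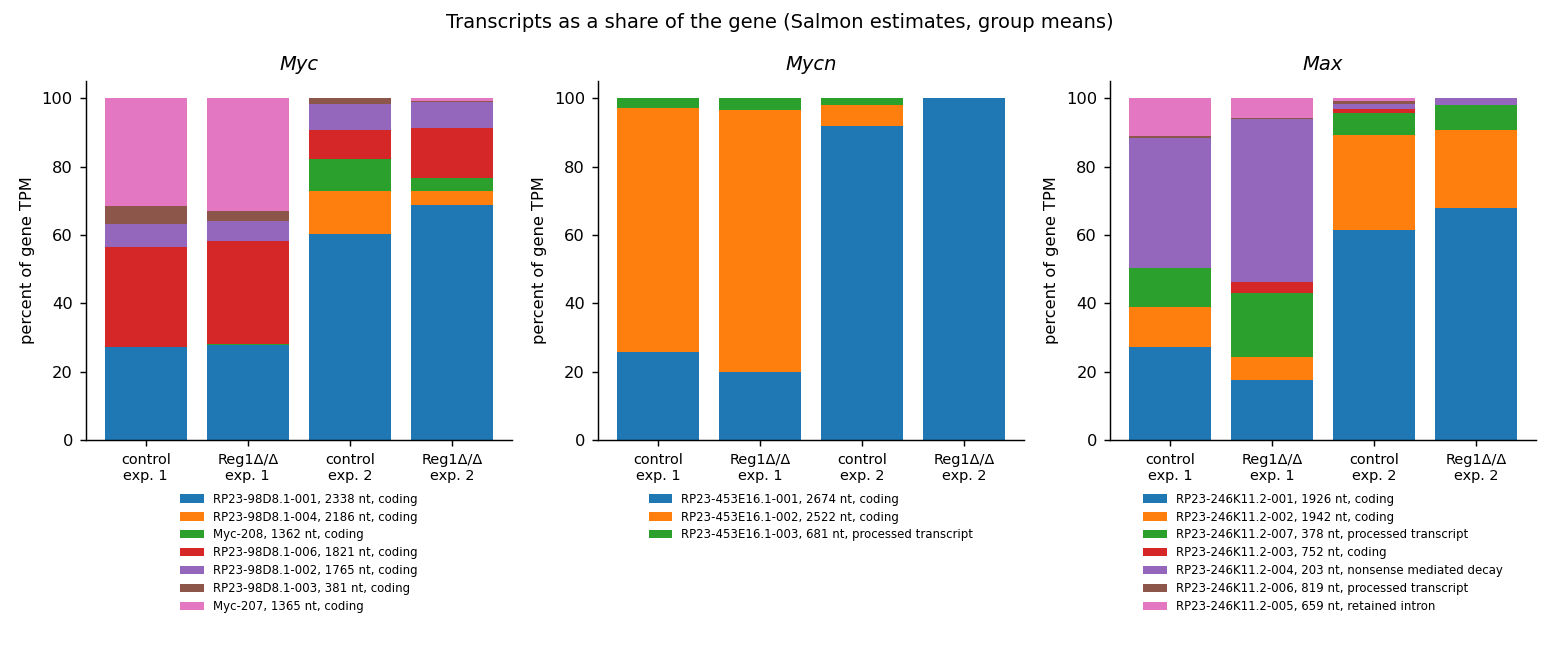
Stacked bars of each transcript's share of gene TPM (percent, group means) for Myc, Mycn and Max, with length and annotated class in the legend, for the 4 groups. The main transcript differs between the experiments for all 3 genes and is alike between genotypes within an experiment.

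The sequence that Myc-Max and Mxd-Max dimers prefer, the E-box CACGTG, which reads the same on both strands, was searched in the 300 bases around the start of each gene (250 before it and 50 after it, RefSeq, GRCm38.p6). It was present for 2187 of 27025 genes (8.09%). Of 10 members 9 had such a window and 4 held the E-box: Max, Mlx, Mnt and Mxd4. They are shown here because they include the shared partners and the antagonist with the lowest adjusted p. The E-box is in capitals with 10 bases on either side, 5′ to 3′ on the strand of the gene.

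Mxd4: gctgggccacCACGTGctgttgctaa

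Mnt: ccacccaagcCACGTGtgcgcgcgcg

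Mlx: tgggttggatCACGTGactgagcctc

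Max: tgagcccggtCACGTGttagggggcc

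These stretches lie at chr5:34187914-34187939 (minus strand), chr11:74830791-74830816 (plus), chr11:101087240-101087265 (plus) and chr12:76962236-76962261 (minus), and the E-boxes begin 219, 123, 40 and 3 bases before the RefSeq start of Mxd4, Mnt, Mlx and Max. These starts differ from the ends of the gene positions given above, which are from GENCODE. Of the 4 genes, Mxd4 and Mnt fell and Max and Mlx did not pass on the TPM scale, and of the others Mycn, Mxd1, Mxd3 and Mxi1 held no such letters in this window. Mycl held none either, and Myc was not searched. A match is a description of letters and was not tied to binding.

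Genes known from textbooks as activated by Myc were mostly higher in the libraries labelled Reg1Δ/Δ. Of 32, all tested, 24 were higher, 4 lower and 4 did not pass, beside 15.0% and 37.9% of all genes, with a median log2 difference of 0.59 against -0.25 over all genes. The counts were 27 and 2 by median of ratios, beside 30.9% and 26.6% of all genes. They were 24 and 1 by quantiles, beside 30.0% and 20.5%. Medians on these scales were 0.94 and 0.58, against 0.05 and 0.14 over all genes. Nme1, a nucleoside diphosphate kinase, was at 327, 236 and 363 TPM in controls and 652, 585 and 672 TPM in the libraries labelled Reg1Δ/Δ of experiment 1, and at 126 and 112 TPM against 284 and 223 TPM in experiment 2. Hspe1, the small mitochondrial chaperonin, rose from 142, 161 and 149 TPM to 315, 391 and 330.0 TPM and from 460.3 and 328 TPM to 680.1 and 639 TPM. Groups of both genes were apart in each experiment, at log2 differences of 1.07 (SE 0.14) and 1.02 (SE 0.14; limma adjusted p = 0.000150 and 0.000203).

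The 4 that fell on the TPM scale were E2f2, Hk2, Ccnd2 and Tfap4, of which Ccnd2 and Tfap4 were named after their values were seen. Hk2, a hexokinase, was at 5.52 to 6.32 TPM in controls and 1.80 to 3.29 TPM in the libraries labelled Reg1Δ/Δ of experiment 1, a log2 difference of -0.77 (limma adjusted p = 0.00312) that was 0.05 on the quantile scale. E2f2, a cell cycle transcription factor, differed by -0.998 (limma adjusted p = 0.00729) and by -0.37 on the quantile scale, where it did not pass. Of 25 genes of the list with a promoter window, 6 held the E-box (24.0%), namely Nme1, Hspd1, Ldha, Eif4e, Eif4a1 and Cdk4. Eif4e and Ldha, which were higher, had 2 matches each, and Cdk4, which did not pass, had 4. Nme1 is shown as the gene of the list with the largest rise. Its matches lie at chr11:93968275-93968300 and chr11:93968039-93968064, both on the minus strand, in windows of 2 separate annotated starts.

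Nme1, first start: tgcggggaacCACGTGaggccgggga

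Nme1, second start: cttgatacgcCACGTGggctcgcctt

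Genes known as repressed by Myc numbered 7, of which 6 were tested, 0 were higher, 4 were lower and 2 did not pass by limma. At an unadjusted p under 0.05 the counts were also 0 and 4. Over all genes, 37.9% were lower. The median log2 difference was -1.74, beside -0.25 over all genes. The 4 were the kinase inhibitors Cdkn1a, Cdkn1b and Cdkn1c and the stress-linked Ndrg2, of which Cdkn1a and Cdkn1b were named after their values were seen. Cdkn1c, which encodes the quiescence factor p57, was at 19.3, 20.7 and 16.6 TPM in controls and 1.01, 0.64 and 1.03 TPM in the libraries labelled Reg1Δ/Δ of experiment 1. It was at 11.3 and 22.1 TPM against 0.47 and 1.58 TPM in experiment 2. The groups were widely apart, at a log2 difference of -3.28 (SE 0.21, limma adjusted p = 2.02e-06). Ndrg2 differed by -2.51 (SE 0.31, limma adjusted p = 0.000126). By median of ratios 2 genes of the list were higher and 4 lower, beside 30.9% and 26.6% of all genes. By quantiles the counts were 1 and 3, beside 30.0% and 20.5%.

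Mlx works through MondoA, encoded by Mlxip, whose textbook targets are Txnip and Arrdc4. Mlxip itself was at 17.6, 15.6 and 15.7 TPM in controls and 6.60, 6.72 and 5.56 TPM in the libraries labelled Reg1Δ/Δ of experiment 1, and at 10.5 and 20.1 TPM against 6.42 and 6.51 TPM in experiment 2, apart in both (log2 difference -1.17, SE 0.16, limma adjusted p = 0.000207). Txnip, an inhibitor of glucose uptake, was at 520.2, 318 and 353 TPM in controls and at 125, 134 and 86.7 TPM in the libraries labelled Reg1Δ/Δ of experiment 1. In experiment 2 it was at 328 and 432 TPM against 70.1 and 55.2 TPM. Its groups did not overlap, with a log2 difference of -2.09 (SE 0.22, limma adjusted p = 4.58e-05), kept on all 3 scales. Arrdc4 differed by -0.91 (SE 0.20, limma adjusted p = 0.00431), and by -0.27 on the quantile scale, where it did not pass. Arrdc4 held the E-box in its promoter window and Txnip did not.

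Mga, a further partner of Max, was at 14.3, 9.42 and 12.5 TPM in controls and 5.03, 6.22 and 5.76 TPM in the libraries labelled Reg1Δ/Δ of experiment 1, and at 23.8 and 24.2 TPM against 20.1 and 21.0 TPM in experiment 2. The log2 difference of -0.66 (limma adjusted p = 0.00857) did not pass by median of ratios (-0.34) or quantiles (-0.15). Mlxipl, which encodes ChREBP, was at 0.38 TPM at most and was not tested.

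**Figure D5:**
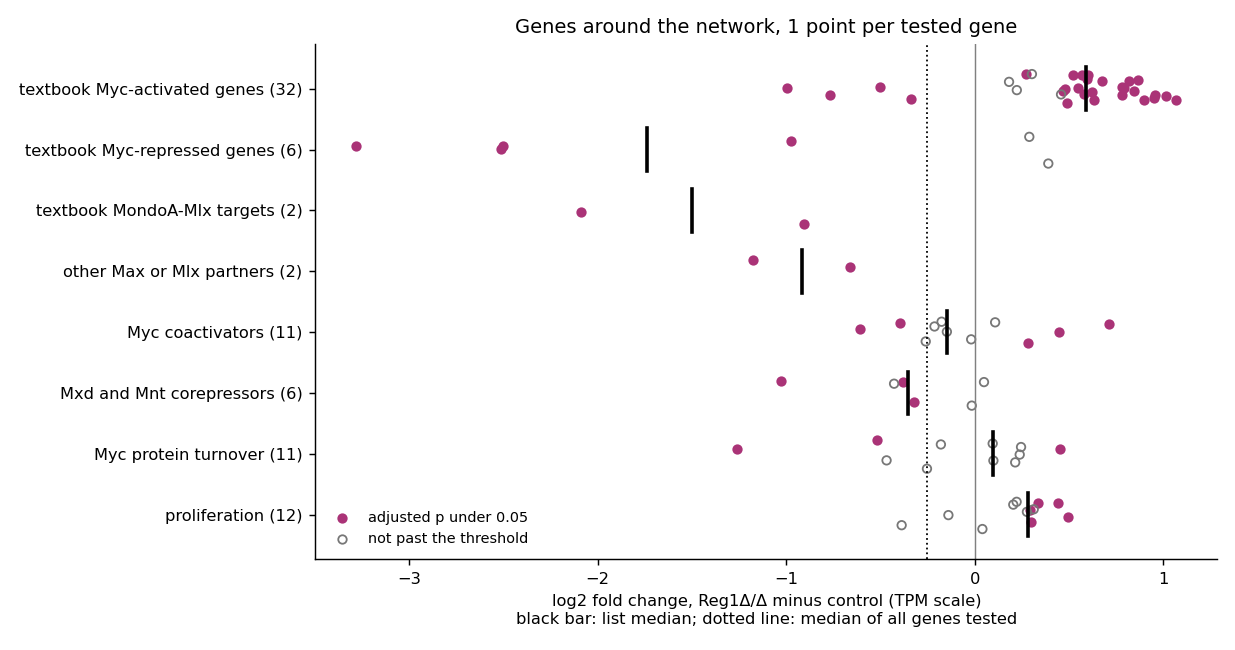
Log2 fold change on the TPM scale, libraries labelled Reg1Δ/Δ minus controls, of each tested gene of 8 lists around the network (points, filled where the limma adjusted p is under 0.05), with the list median (bar) and the median of all genes (dotted line, -0.25). Medians were 0.59 for Myc-activated and -1.74 for Myc-repressed genes.

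Cofactors of the network moved both ways. Of 11 coactivators of Myc 3 were higher and 2 lower, beside 15.0% and 37.9% of all genes. Ruvbl2 and Ruvbl1, the helicases of the TIP60 and INO80 complexes, rose by 0.71 and 0.45 on the log2 scale (limma adjusted p = 0.000845 and 0.00483), from means of 539 and 125 TPM in controls of experiment 1 to 878 and 164 TPM. Trrap, the scaffold of histone acetyltransferase complexes, differed by -0.61 (limma adjusted p = 0.0419), a call lost without any of 7 libraries in turn and on both other scales. Zbtb17, which encodes the Myc partner Miz-1, differed by -0.40 (limma adjusted p = 0.00473) and by 0.03 on the quantile scale. By limma the counts were 5 and 0 by median of ratios, beside 30.9% and 26.6% of all genes. They were 2 and 0 by quantiles, beside 30.0% and 20.5%. At an unadjusted p under 0.05 the counts on these 2 scales were 5 and 0, and 4 and 0.

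Of 6 corepressor genes used by Mxd proteins and Mnt, 0 were higher, 3 lower and 3 did not pass by limma, and at an unadjusted p under 0.05 the counts were again 0 and 3. Lower genes made up 37.9% of all genes tested. Ncor1 differed by -0.38 (limma adjusted p = 0.0278), a call lost without any of 5 libraries in turn, and by -0.03 by median of ratios. Sin3a, the docking protein of the Mxd repression domain, did not pass at -0.43 (limma adjusted p = 0.0982), and was named after its values were seen. By median of ratios 2 of the list were higher and 1 lower, beside 30.9% and 26.6% of all genes.

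Among 11 genes of Myc protein turnover, 1 was higher and 2 lower, beside 15.0% and 37.9% of all genes. Usp28, a deubiquitinase that protects Myc, was at 19.3, 19.8 and 14.5 TPM in controls and 5.65, 7.30 and 10.03 TPM in the libraries labelled Reg1Δ/Δ of experiment 1 and at 8.84 and 23.8 TPM against 4.58 and 4.93 TPM in experiment 2 (log2 difference -1.26, limma adjusted p = 0.00204). Trpc4ap, part of a ubiquitin ligase for Myc, differed by -0.52 (limma adjusted p = 0.0100), but did not pass by median of ratios (-0.17, limma adjusted p = 0.201), and its groups overlapped in experiment 2. Aurka, which stabilises N-Myc protein, differed by 0.45 (limma adjusted p = 0.0168). Fbxw7, the best known ligase for Myc, did not pass at 0.24 (95% interval -0.38 to 0.85, limma adjusted p = 0.489), and was named after its values were seen. By median of ratios 5 were higher and 1 lower, beside 30.9% and 26.6% of all genes. By quantiles the counts were 6 and 2, beside 30.0% and 20.5%.

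Of 12 proliferation genes 5 were higher and 0 lower by limma on the TPM scale, 10 and 0 by median of ratios and 0 and 0 by quantiles. At an unadjusted p under 0.05 the counts were 6 and 0, 10 and 0, and 3 and 0. Higher genes made up 15.0% of all genes on the TPM scale, 30.9% by median of ratios and 30.0% by quantiles. The 5 higher calls on the TPM scale fell to between 0 and 3 without any 1 of 9 libraries, all but the first control of experiment 1, and were fewest (0) without the third library labelled Reg1Δ/Δ of experiment 1. Ccnb1 and Ccna2, the mitotic and S phase cyclins, differed by 0.49 and 0.44 on the log2 scale (limma adjusted p = 0.0357 and 0.0246). The call of Ccnb1 was lost without any of 7 libraries in turn and that of Ccna2 without either of 2. In experiment 2 the groups of both genes overlapped.

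The genes whose values were most like those of Myc across the 10 libraries, after each experiment was centred, were Dnaja2 (Pearson's r = 0.965), Aen (0.962) and L3mbtl2 (0.961), among 8143 genes with a mean of at least 10 TPM. Those most like Mycn were Zfp444 (0.997), Igfbp4 (0.992) and Mfng (0.991). Igfbp4 had 146 to 277 TPM in controls and 27.9 to 50.7 TPM in the libraries labelled Reg1Δ/Δ. These correlations describe libraries that share genotype and scale, so that any gene with a clear genotype difference is alike in part.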

How the data were processed

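RNA of CD34- HSCs was sequenced in 10 libraries, and the deposited files hold log2 values per transcript, log2(TPM + 1), made by the authors without pooling of replicates. The submitters' processing notes name Salmon 0.9.1 and the mm10 build, and the study's methods describe low-input cDNA amplification with Nextera XT libraries. For 1 library, the second labelled Reg1Δ/Δ of experiment 2, the file header bears the name of the first, and its values differ from it. Values were converted to TPM and summed per gene. Genes with at least 1 TPM in at least 5 of 10 libraries were tested with limma 3.58.1 (R 4.3.3) on log2(TPM + 1) with experiment as covariate, and p-values were adjusted by Benjamini-Hochberg over all 12874 genes with a threshold of 0.05. Fold changes on this scale understate those of low genes. Depth is unknown, so no count test was made, and the labels do not say whether replicates came from separate mice, so p-values measure only the spread between these libraries. The script of the fit was tested on simulated data.

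Replicate numbers did not pair the libraries: same-numbered deviations correlated at 0.03, 0.18 and 0.07 in experiment 1 and -0.05 in experiment 2. Gene positions are from GENCODE M21 (GRCm38), whose annotation lists 95745 of the 95912 transcript identifiers. Members and gene lists were chosen with earlier results of these data known. Named were all members, Zc3h12a, in each list the 2 largest rises and falls past the threshold (all genes of lists of up to 3), and for Myc and Mycn the 3 genes most alike. Other genes, marker genes included, were named after their values were seen. A result that the rule would name is not reported here. Alternatives were another covariate, block, pseudocount, filter or scaling, protein-coding transcripts only, each experiment alone and each library left out. Protein sequences were not used here.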

Additional observations from a re-analysis of the deposited data

How the results depend on the processing

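The count of members that were lower (6) held at 6 and that of higher members at 1 without any single library, with a replicate block in place of the experiment covariate, pseudocount 0.1, no filter, a mean TPM of at least 1 and a variance trend. Lower members numbered 3 without the experiment covariate, 2 by quantile normalization, 4 by median of ratios, 3 in experiment 2 alone and 5 in experiment 1 alone or with protein-coding transcripts only, and higher members 2 by quantiles, 3 by median of ratios and 0 in experiment 1 or 2 alone by limma (1 in each at an unadjusted p under 0.05). Over all genes, higher calls numbered 716 without the covariate, 3861 by quantiles, 3973 by median of ratios and 452 in experiment 2 alone, and lower calls 3052, 2636 (quantiles) and 1581 (experiment 2 alone). Without each library they ran from 1548 to 1961 higher and 4409 to 5242 lower. The replicate block gave 1703 higher and 4545 lower genes and changed no member's call. Its numbers are a hint only, as they did not pair the libraries.

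Directions turned by quantiles for Mxi1 (0.047), Mnt (0.129), Hk2 (0.051) and Zbtb17 (0.030), and with protein-coding transcripts only for Max (-0.014). The difference of Zc3h12a kept its sign and lost its call without the covariate (0.83), with the replicate block (0.83), with no filter (0.83), in experiment 1 (0.52) and in experiment 2 alone (1.30), and ran from 0.53 to 0.99 without each library. Settings for transcripts, and for Zc3h12a, were chosen after seeing the data: higher member transcripts numbered 0 by limma with the replicate block or pseudocount 0.1 (1 and 2 at an unadjusted p under 0.05), 2 by quantiles and 0 to 1 without each library, and lower ones 4 to 5. The difference between genotypes in the log2 ratio of antagonists to family was -1.39, from -1.49 to -1.28 without each library. The interaction gave 0 members by limma under every alternative run, beside 17 to 132 of all genes. At an unadjusted p under 0.05 it gave 0 to 3 members, beside 1186 to 2303 of all genes. Causes of these shifts were not tested, except that single experiments hold fewer libraries. Depth is unknown, so no limit on low values such as those of Mnt and Mycl can be given.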
